A study of Mus musculus with 9 samples.

Results

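Red blood cell transcripts were followed in RNA-seq libraries of mouse embryonic lens that lacked *Mafg* alone or both *Mafg* and *Mafk*, which encode small Maf proteins. The genes were *Hba-a1*, *Hba-a2*, *Hbb-bs*, *Hbb-bt*, *Hbb-y*, *Alas2* and *Slc4a1*, taken by symbol from the processed table. All 7 were found among 15820 entries with a gene symbol, of 22013 entries in all. Lenses were collected at E16.5 (the embryonic day) from 3 genotypes with 3 libraries each, and RNA of 8 lenses was pooled in every library. Control lenses were *Mafg*+/-:*Mafk*+/-, so they carried 1 knockout allele of each gene and were not wild type. Compound KO lenses were *Mafg*-/-:*Mafk*+/- and double KO lenses were *Mafg*-/-:*Mafk*-/-. The alleles were germline knockouts in mice kept mainly on an ICR background, so blood-forming cells carried them as well as the lens.

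Hemoglobin of the red blood cell is a tetramer of alpha-type and beta-type globin chains around heme. In mouse, *Hba-a1* and *Hba-a2* encode the same kind of adult alpha chain, *Hbb-bs* and *Hbb-bt* encode the adult beta chains of the haplotype in the reference genome, and *Hbb-y* encodes the embryonic beta-type chain epsilon-y, which is made mostly by primitive red cells of the yolk sac. *Alas2* encodes the erythroid enzyme that starts heme synthesis, and *Slc4a1* encodes band 3, the anion exchanger that anchors the red cell skeleton to the membrane. Small Maf proteins pair with the erythroid partner p45 (Nfe2) to form NF-E2, a factor known for its sites in the distal control regions of the globin loci. The lens itself has no vessels, but in the embryo it is wrapped by the hyaloid vasculature, which carries blood.

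The globin and *Alas2* promoters are shown because the levels of these transcripts ran together over the libraries. The sequences are the 250 bases before the transcription start, 5′ to 3′ on the strand of the gene, from RefSeq (GRCm38.p6). Capitals mark 3 motifs on either strand. They are the GATA factor core GATAA, which reads TTATC on the other strand, the box of Klf-type factors CACCC, which reads GGGTG there, and the CCAAT box, which reads ATTGG there. No match shared a base with another.
Hba-a1: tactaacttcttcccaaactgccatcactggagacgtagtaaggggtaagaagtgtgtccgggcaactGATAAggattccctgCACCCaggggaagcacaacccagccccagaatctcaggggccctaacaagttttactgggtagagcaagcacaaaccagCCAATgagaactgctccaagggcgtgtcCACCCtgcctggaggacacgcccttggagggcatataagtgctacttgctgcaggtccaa
Hbb-bs: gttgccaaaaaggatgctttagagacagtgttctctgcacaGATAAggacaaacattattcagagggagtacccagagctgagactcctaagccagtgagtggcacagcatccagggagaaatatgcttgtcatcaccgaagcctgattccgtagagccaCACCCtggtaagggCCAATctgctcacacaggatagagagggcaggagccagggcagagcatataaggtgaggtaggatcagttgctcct
Hbb-bt: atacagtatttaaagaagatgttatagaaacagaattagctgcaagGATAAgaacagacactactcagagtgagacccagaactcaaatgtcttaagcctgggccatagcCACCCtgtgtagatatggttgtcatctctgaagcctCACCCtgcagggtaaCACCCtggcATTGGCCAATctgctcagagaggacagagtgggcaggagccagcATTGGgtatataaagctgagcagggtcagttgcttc
Hbb-y: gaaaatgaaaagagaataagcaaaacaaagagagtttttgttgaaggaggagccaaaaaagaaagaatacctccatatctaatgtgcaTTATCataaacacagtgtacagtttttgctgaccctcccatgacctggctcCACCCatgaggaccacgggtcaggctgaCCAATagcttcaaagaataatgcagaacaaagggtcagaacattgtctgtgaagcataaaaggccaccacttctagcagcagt
Alas2: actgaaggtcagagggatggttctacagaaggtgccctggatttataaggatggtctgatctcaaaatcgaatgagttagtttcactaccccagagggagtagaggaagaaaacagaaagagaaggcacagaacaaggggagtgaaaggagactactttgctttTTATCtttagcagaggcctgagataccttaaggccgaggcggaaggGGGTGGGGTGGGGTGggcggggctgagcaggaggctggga

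They lie at chr11:32283422-32283671 (+ strand, *Hba-a1*), chr7:103827929-103828178 (- strand, *Hbb-bs*), chr7:103813924-103814173 (- strand, *Hbb-bt*), chr7:103853208-103853457 (- strand, *Hbb-y*) and chrX:150547167-150547416 (+ strand, *Alas2*). Of the 7 genes, 6 had an entry in the promoter table and *Slc4a1* did not. The window of *Hba-a2* was the same sequence as that of *Hba-a1*, moved by 3 bases, with 297 of 297 aligned bases identical, and is not repeated. The windows of *Hbb-bs* and *Hbb-bt* were 56.2% identical.

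Counted over 300 bases, from 250 before to 50 after the start, GATAA was found once in each of the 6 promoters, against 25.4% of 32851 RefSeq promoters that held it. CACCC was found in all 6, with 3 matches each in *Hbb-bt* and *Alas2*, against 57.5% of all promoters. CCAAT was found in 5 of 6, with none in *Alas2* and 3 in *Hbb-bt*, against 37.4% of all promoters. The core of an NF-E2 site, TGAGTCA, was found in 5.20% of all promoters and in 1 of these 6. That match lay in *Hbb-bs*, on the other strand, 27 bases after the start and so outside the stretch printed above. These are matches of letters and not measured sites, and the distal control regions were not searched.

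**Figure D1:**
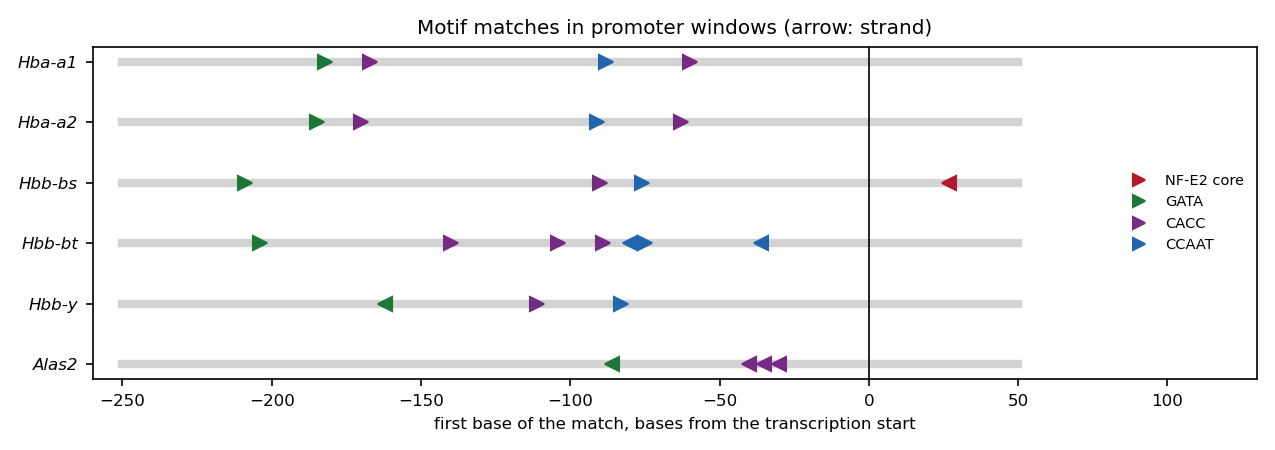
Motif matches in the promoter windows of 6 genes, by the position of the first base of each match in bases from the transcription start (vertical line). Grey bars are the 300-base windows and arrowheads give the strand. The GATA, CACC and CCAAT matches all lie before the start, and the single NF-E2 core lies 27 bases after it in *Hbb-bs*.

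In the current assembly (GRCm39, GENCODE release 39) the 7 genes lie on 3 chromosomes. *Hba-a1* (chr11:32233186-32234504) and *Hba-a2* (chr11:32246168-32247320) are neighbours with 3 exons each. *Hbb-bt* (chr7:103461727-103465047), *Hbb-bs* (chr7:103475730-103482989) and *Hbb-y* (chr7:103500956-103502423) follow each other on chromosome 7, also with 3 exons each. *Slc4a1* (chr11:102239650-102257029) has 20 exons and *Alas2* (chrX:149330371-149353634) has 11. Reads cannot always be told apart between the duplicated genes. Of 638 stretches of 101 bases, the read length, in the *Hba-a1* transcript, 468 (73.4%) also occurred in *Hba-a2*, and of 564 in *Hbb-bs*, 332 (58.9%) also occurred in *Hbb-bt*. No other pair among the 21 pairs of these genes shared such a stretch. The level of each copy is therefore uncertain, and the sum of the pair is given beside it.

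Values are given as normalized CPM, the scaled read abundance that the authors deposited. Read counts were not used here and the depth of each library is unknown, so precision rests on the spread between 3 libraries. The labels do not say that the libraries of a genotype came from separate litters, so p-values measure the spread between these libraries. *Mafg* was at 112.9 to 134.5 in control, 10.1 to 24.1 in compound KO and 21.2 to 26.2 in double KO libraries, and *Mafk* was at 5.2 to 6.3, 4.3 to 5.3 and 0 to 0.6, so each was lowest in the genotypes that lack it. Compound KO replicate 1 stood apart from the other libraries. Its values summed to 728036, against 977149 to 1131184 elsewhere, its sum over 14 lens genes was 43082 against 85715 to 141708, and its sum over 12 pericyte and mesenchyme genes was 2127 against 49.8 to 250. Differences of the 7 genes and counts over the red cell lists that rest on it are given with and without it.

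All 7 transcripts were present in all 9 libraries. Per kilobase of transcript, the scale on which genes can be compared, *Hbb-bs* led in control lenses with 733 ± 42.3 normalized CPM per kb (SD, n = 3). *Hba-a2* followed at 497 ± 114, *Hba-a1* at 436 ± 204 and *Hbb-bt* at 352 ± 21.4, where *Hba-a1* overlapped in spread with both of its neighbours. *Alas2* was far below at 7.87 ± 1.12, then came *Hbb-y* at 1.95 ± 0.555 and *Slc4a1* at 0.381 ± 0.0916. In double KO lenses the order was the same, at 1585 ± 639 for *Hbb-bs*, 1230 ± 477 for *Hba-a2*, 861 ± 291 for *Hba-a1*, 763 ± 332 for *Hbb-bt*, 15.2 ± 7.60 for *Alas2*, 11.7 ± 6.99 for *Hbb-y* and 1.29 ± 0.691 for *Slc4a1*. There, the spreads of neighbours overlapped among the adult globins and between *Alas2* and *Hbb-y*. In compound KO lenses *Hba-a1* (787 ± 308 per kb) and *Hba-a2* (773 ± 297 per kb) were level, between *Hbb-bs* at 1016 ± 287 and *Hbb-bt* at 460 ± 122. All 4 overlapped in spread with their neighbours there, as did *Alas2* (11 ± 4.15) and *Hbb-y* (5.90 ± 4.95), above *Slc4a1* at 0.645 ± 0.235. The 4 adult globins together made up 0.111% to 0.151% of all normalized CPM in control libraries, 0.193% to 0.273% in compound KO and 0.236% to 0.371% in double KO libraries.

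The comparison of double KO with control lenses asked what is lost or gained when both small Maf genes are absent. All 7 transcripts had a higher mean in double KO lenses, from 1.93 times the control mean for *Alas2* to 6.0 times for *Hbb-y*. For 6 of 7 the lowest double KO library lay above the highest control library, against 7.78% of all 14122 genes tested. None passed the test after adjustment over all genes tested. In libraries of whole lenses the cells that held these transcripts were not identified. More red cells and more RNA per red cell cannot be told apart either.

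The alpha chain genes differed in how their libraries were ordered. *Hba-a1* was at 157.3, 353.9 and 453.5 normalized CPM in control replicates 1 to 3 and at 806.4, 394.2 and 704.8 in double KO replicates 1 to 3. Double KO replicate 2 lay between control replicates 2 and 3, so the groups overlapped. *Hba-a2* was at 250.7, 316.2 and 397.5 in control and at 531.3, 1135.0 and 720.7 in double KO lenses, without overlap, and replicate 2 was the highest here. Double KO replicate 2 was thus low for 1 copy and high for the other. Summed over both copies, the alpha signal was 408, 670.1 and 851 in control and 1337.7, 1529.2 and 1425.5 in double KO libraries. The sum did not overlap, and the double KO libraries were close together at 1431 ± 95.9 (SD, n = 3), against 643 ± 223 in control.

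The adult beta genes ran in step. *Hbb-bs* was at 482.6, 460.8 and 516.5 in control and at 638.0, 1485.7 and 1033.7 in double KO libraries. *Hbb-bt* was at 259.9, 230.8 and 252.0 in control and at 330.7, 791.2 and 490.1 in double KO libraries. Control libraries were tight for both, with SDs of 28.1 and 15, while the double KO libraries spread widely, with SDs of 424 and 234, and none overlapped with control. Replicate 2 was the highest and replicate 1 the lowest of the double KO libraries for both genes.

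The embryonic gene and the other 2 erythroid genes showed the same order of groups at lower levels. *Hbb-y* was at 1.6, 1.2 and 0.9 in control and at 5.1, 12.5 and 4.6 in double KO libraries, without overlap. *Alas2* was at 17.3, 13.4 and 17.4 in control and at 24.8, 48.5 and 19.4 in double KO libraries, where the lowest double KO library lay close above the highest control library. *Slc4a1* was at 1.6, 1.4 and 2.2 in control and at 3.4, 9.4 and 4.8 in double KO libraries. Double KO replicate 2 held the highest of all 9 values for 6 of the 7 genes, *Hba-a1* being the exception.

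**Figure D2:**
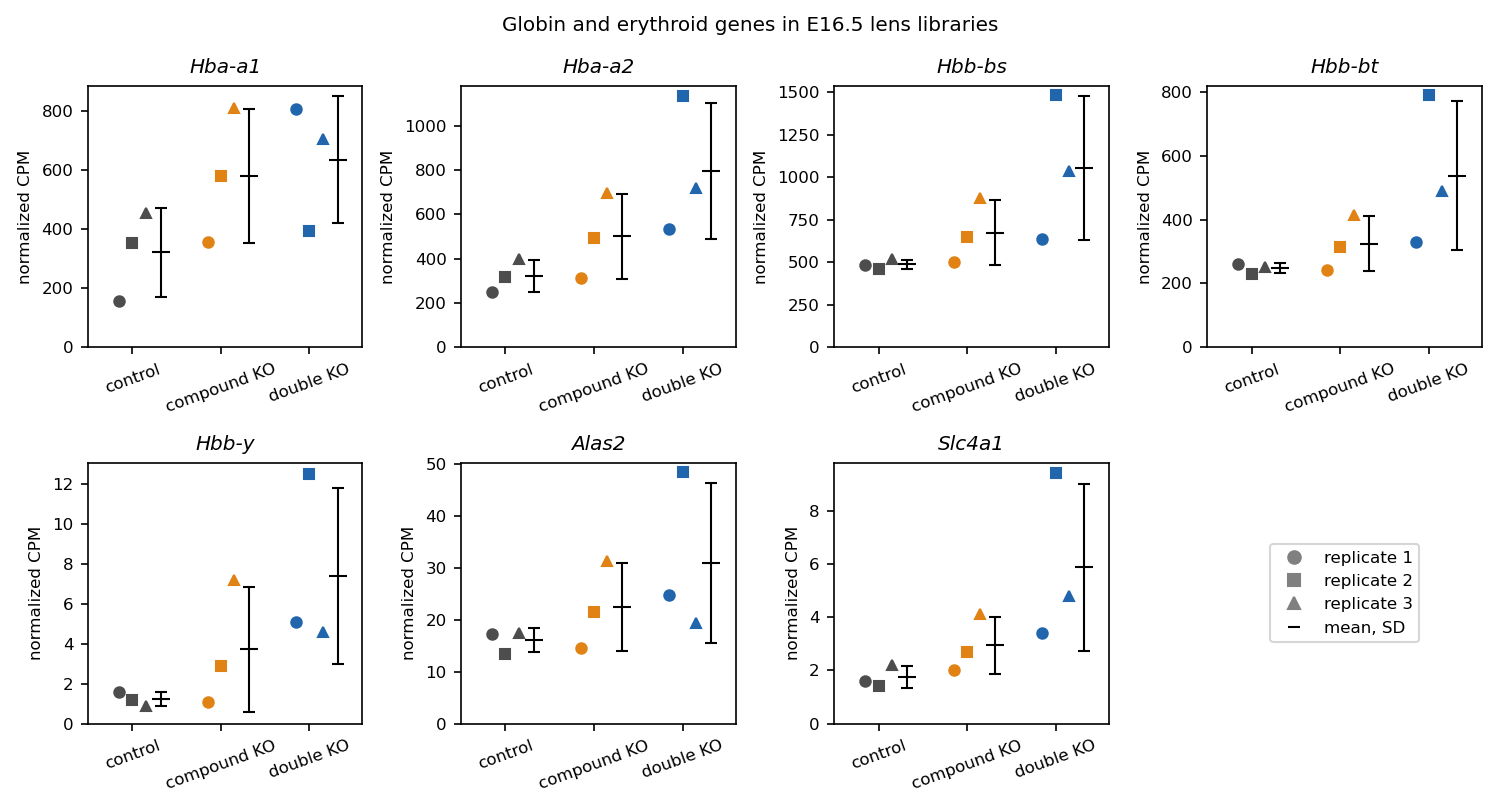
Normalized CPM of each gene in all 9 libraries (linear axes from 0), with colours for genotype, symbols for replicate number and the mean ± SD of each group beside its points. Every double KO point lies above every control point except for *Hba-a1*, and compound KO replicate 1 lies within the control range in each panel.

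On the log2 scale of the value plus 1, the difference between double KO and control lenses was 1.05 (SE 0.47) for *Hba-a1*, 1.26 (SE 0.31) for *Hba-a2*, 1.03 (SE 0.30) for *Hbb-bs* and 1.03 (SE 0.31) for *Hbb-bt*. It was 1.80 (SE 0.37) for *Hbb-y*, 0.81 (SE 0.34) for *Alas2* and 1.24 (SE 0.34) for *Slc4a1*. The added 1 understates the difference of *Hbb-y* and *Slc4a1*, which was 2.37 and 1.60 with 0.1 added instead. The median over the 7 genes was 1.05, and over all 14122 genes tested it was 0.01. In limma with Benjamini-Hochberg adjustment the adjusted p ran from 0.215 (*Hbb-y*) to 0.553 (*Hba-a1*), so 0 of 7 genes were called (adjusted p up to 0.05 with a 1.5-fold difference), where 0.361% of all genes were called. By the same rule on the unadjusted p, 5 of 7 were higher, all but *Hba-a1* and *Alas2*, against 1.59% of all genes that were higher by that rule. The count of 6 of 7 without overlap stood against 7.78% of all genes. The levels of these genes ran together over the libraries and 4 of them share sequence, so the counts are not 7 separate observations.

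With each pair of copies summed to 1 entry, a setting chosen after seeing the data, the difference was 1.21 (SE 0.27) for the alpha genes with a limma adjusted p of 0.245, and 1.03 (SE 0.30) for the adult beta genes with an adjusted p of 0.358. Neither sum overlapped between the groups. Double KO replicate 2 set much of the size of the differences. Without it, *Alas2* was 0.44 higher in place of 0.81, *Hbb-bs* 0.74, *Hbb-bt* 0.70 and *Hbb-y* 1.40. Control replicate 1, the lowest for *Hba-a1*, set much of that gene's difference, which was 0.60 without it. Without double KO replicate 2, all 7 genes were free of overlap, where 13.7% of all genes were, and 6 of 7 were higher at an unadjusted p, where 1.97% of all genes were. No adjusted p of the 7 genes fell to 0.05 in any setting tried.

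Compound KO lenses, which keep 1 functional copy of *Mafk*, were compared with the same control libraries to see whether loss of *Mafg* goes with a difference. All 7 transcripts had a higher mean, from 1.31 times the control mean for *Hbb-bt* to 3.03 times for *Hbb-y*, but the libraries did not act as a group. Replicates 2 and 3 lay above every control library for 7 of 7 genes, where 16.1% of all genes did. Replicate 1 lay within the control range for 7 of 7. Replicate 1 is the library that stood apart in its total and in its lens and mesenchyme genes.

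*Hba-a1* was at 354.7, 578.6 and 808.6 normalized CPM in compound KO replicates 1 to 3, and its value in replicate 3 was the highest of all libraries. *Hba-a2* was at 312.5, 492.1 and 696.1. The alpha sum was 667.2, 1070.7 and 1504.7, so replicate 3 reached the double KO libraries and replicate 1 the middle of the control libraries. *Hbb-bs* was at 498.3, 648.0 and 876.8 and *Hbb-bt* at 242.9, 314.1 and 414.4. Replicate 1 was again level with control for both beta genes. *Hbb-y* was at 1.1, 2.9 and 7.2, *Alas2* at 14.5, 21.4 and 31.3, and *Slc4a1* at 2.0, 2.7 and 4.1. All 7 genes were ordered alike over the 3 libraries, lowest in the library that stood apart.

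The log2 differences between compound KO and control lenses were 0.90 (SE 0.49) for *Hba-a1*, 0.59 (SE 0.33) for *Hba-a2*, 0.43 (SE 0.21) for *Hbb-bs* and 0.35 (SE 0.20) for *Hbb-bt*. For *Hbb-y* the difference was 0.88 (SE 0.50), for *Alas2* 0.40 (SE 0.29) and for *Slc4a1* 0.50 (SE 0.24). Their size moved with single libraries. Without replicate 1 the differences were 1.22 for *Hba-a1*, 0.89 for *Hba-a2*, 0.63 for *Hbb-bs*, 0.54 for *Hbb-bt*, 1.35 for *Hbb-y*, 0.67 for *Alas2* and 0.68 for *Slc4a1*. Without replicate 3, the highest compound KO library, they were 0.62, 0.31, 0.22, 0.16, 0.37, 0.14 and 0.30 in the same order of genes. All stayed above 0 in both settings. Without control replicate 1 *Hba-a1* was at 0.46. The median was 0.50, against 0.02 over 14348 genes. The limma adjusted p ran from 0.481 to 0.525, and 0 of 7 genes were called, where 0% of all genes were called and 766 passed the unadjusted p and 1.5-fold. By the unadjusted rule 0 of 7 were higher, against 3.81% of all genes, and 0 of 7 were free of overlap, against 12.2% of all genes.

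These counts turned on replicate 1, on scaling and, by less, on the fit. Without replicate 1, 7 of 7 genes were free of overlap, where 16.1% of all genes were, and 5 of 7 were higher at the unadjusted p, where 2.6% of all genes were. Without control replicate 3, 3 of 7 were free of overlap, where 17% of all genes were. With each library scaled by its total alone, compound KO replicate 1 lay above every control library for 6 of 7 genes. Under that scaling 6 of 7 genes were free of overlap, where 25.8% of all genes were, and 6 of 7 were higher at the unadjusted p, where 5.25% were. With the replicate number as a block, 2 of 7 were higher by the unadjusted rule, where 4.93% of all genes were. With scaling by library total, the median of all genes moved from 0.02 to 0.24 and the median of the 7 genes from 0.50 to 0.69.

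The comparison of double KO with compound KO lenses asked what the loss of the last *Mafk* copy adds. The means of all 7 transcripts were higher in double KO lenses, from 1.09 times for *Hba-a1* to 2.00 times for *Slc4a1*, with overlap for every gene. The log2 difference was 0.14 (SE 0.40) for *Hba-a1*, 0.67 (SE 0.39) for *Hba-a2*, 0.60 (SE 0.36) for *Hbb-bs*, 0.67 (SE 0.36) for *Hbb-bt*, 0.93 (SE 0.59) for *Hbb-y*, 0.41 (SE 0.42) for *Alas2* and 0.74 (SE 0.38) for *Slc4a1*. In limma 0 of 7 genes were called, with adjusted p from 0.665 to 0.888, where 0.0139% of 14402 genes were called. By the unadjusted rule 0 of 7 were higher, against 0.854% of all genes, and 0 of 7 were free of overlap, against 8.17% of all genes. Without compound KO replicate 3, 4 of 7 were free of overlap, where 16.6% of all genes were. Without double KO replicate 1, 4 of 7 were free of overlap, where 14.9% were, and 3 of 7 were higher by the unadjusted rule, where 0.98% were. Apart from *Hba-a1*, the differences were smaller without double KO replicate 2 and without compound KO replicate 1, and larger without compound KO replicate 3, at 0.67 to 1.43. Without double KO replicate 2 they were 0.46 for *Hba-a1*, 0.38 for *Hba-a2*, 0.31 for *Hbb-bs*, 0.35 for *Hbb-bt*, 0.52 for *Hbb-y*, 0.04 for *Alas2* and 0.40 for *Slc4a1*. Without compound KO replicate 1 they were 0.37 for *Hba-a2*, 0.40 for *Hbb-bs*, 0.48 for *Hbb-bt*, 0.45 for *Hbb-y*, 0.14 for *Alas2* and 0.57 for *Slc4a1*. The sign for *Hba-a1* was not settled, at -0.17 without compound KO replicate 1, -0.06 without double KO replicate 1 and -0.04 with scaling by library total alone.

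**Figure D3:**
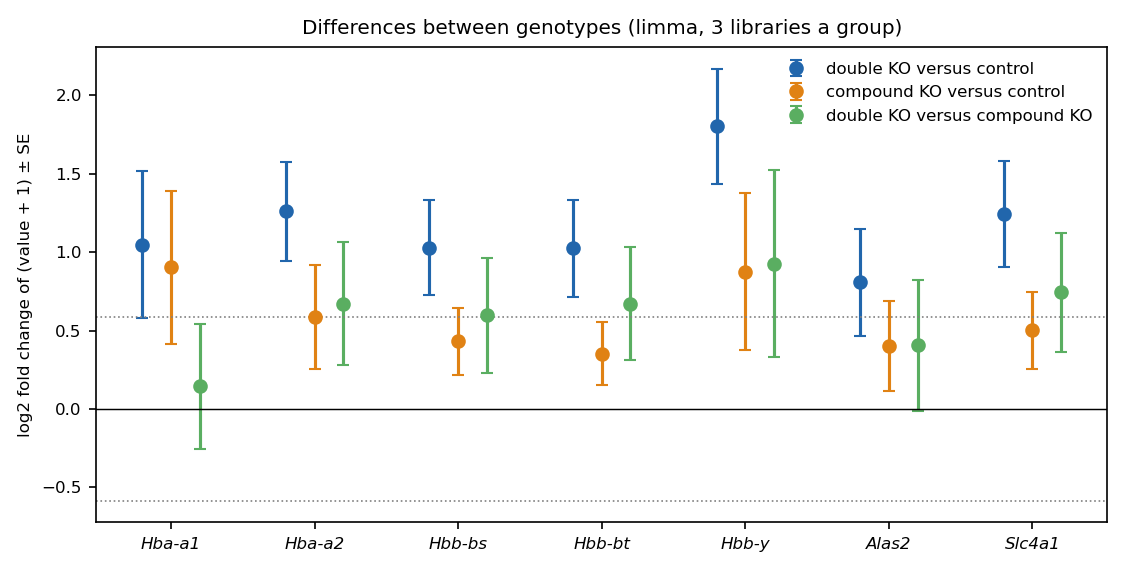
Difference in log2 of normalized CPM plus 1 for each gene in the 3 comparisons, as limma's estimate with bars of 1 SE. Dotted lines mark a 1.5-fold difference in either direction. Every double KO to control estimate lies above the upper dotted line, from 0.81 to 1.80, and the other comparisons lie closer to 0 with 0 of 7 genes called in each. The comparisons with control share the control libraries.

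Within the globin signal, the adult beta genes kept a near constant ratio. *Hbb-bt* held 32.1% to 35% of the adult beta signal in all 9 libraries, while the beta sum itself ran from 691.6 to 2276.9. The *Hbb* haplotype of these mice is not given in the sources used here, so the split between the entries is uncertain. The alpha copies were less even. *Hba-a1* held 49.4% to 54.0% of the alpha signal in 6 libraries, but 38.6% in control replicate 1, 60.3% in double KO replicate 1 and 25.8% in double KO replicate 2. The same 3 libraries had the outermost ratios of alpha to adult beta signal, 0.549 in control replicate 1, 1.38 in double KO replicate 1 and 0.672 in double KO replicate 2, where the other 6 ran from 0.900 to 1.17. Neither measure separated the genotypes, and the split between the alpha copies rests on reads that mostly fit both.

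*Hbb-y* was a minor part of the beta-type signal, on the scale of normalized CPM. It made up 0.215%, 0.173% and 0.117% in control replicates 1 to 3, 0.148%, 0.301% and 0.555% in compound KO and 0.524%, 0.546% and 0.301% in double KO libraries. Every double KO library was above every control library in this share, while the compound KO libraries overlapped with both. *Alas2* ran at 9.84 to 15 per 1000 of the summed adult globin value in control, 10.3 to 11.2 in compound KO and 6.58 to 12.7 in double KO libraries. *Slc4a1* ran at 1.03 to 1.39, 1.33 to 1.47 and 1.47 to 2.47 per 1000. Relative to the globins, *Alas2* overlapped between all groups, and *Slc4a1* did not overlap between double KO and control libraries.

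**Figure D4:**
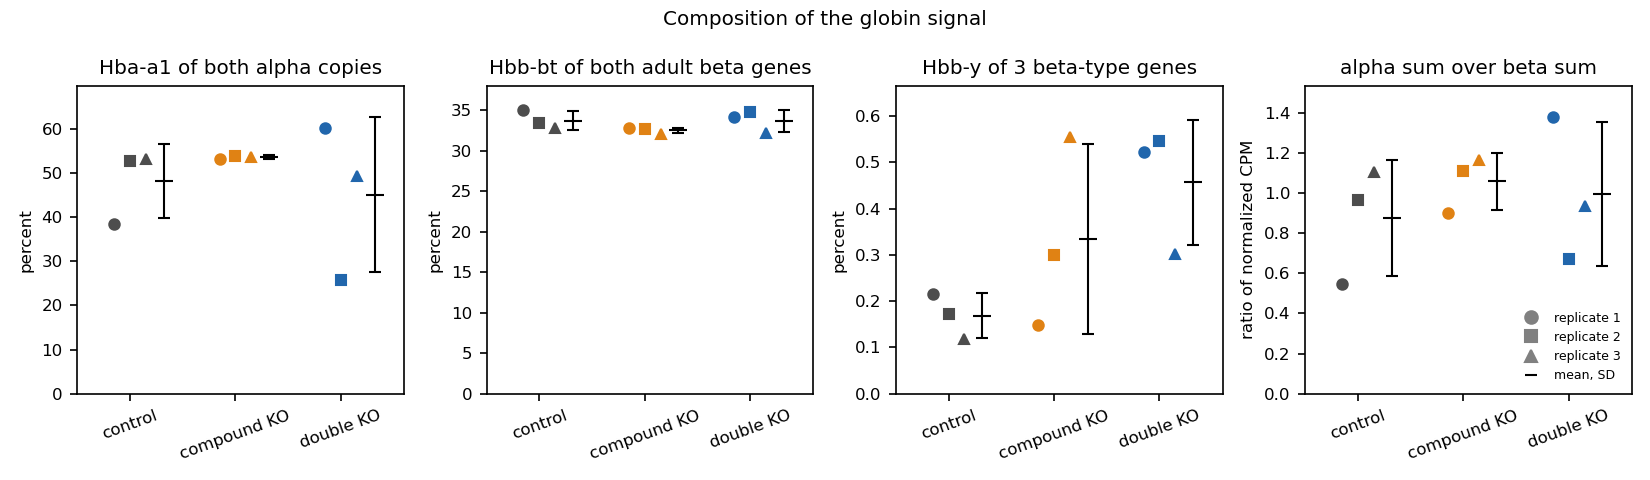
Shares within the globin signal in each library, from left to right the percent of *Hba-a1* in both alpha copies, the percent of *Hbb-bt* in both adult beta genes, the percent of *Hbb-y* in the 3 beta-type genes and the ratio of the alpha to the adult beta sum, with mean ± SD of each group. The *Hbb-bt* share stays between 32.1% and 35%, and the *Hba-a1* share runs from 25.8% to 60.3%.

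Over the 9 libraries, the log2 values of 6 of the genes followed the log2 sum of the 4 adult globins closely. Pearson's r with that sum was 0.994 for *Hba-a2*, 0.953 for *Hbb-bs*, 0.929 for *Hbb-bt*, 0.958 for *Slc4a1*, 0.923 for *Hbb-y* and 0.849 for *Alas2*. It was 0.665 for *Hba-a1*, and 0.913 over the 8 libraries without double KO replicate 2. For the genes outside the sum, r over those 8 libraries was lower for *Alas2* (0.764) and *Hbb-y* (0.879) and higher for *Slc4a1* (0.973). The 4 adult globins are part of the sum, and the points share their genotype groups, so these are descriptions. Among 14003 other genes with a mean of at least 1, the 10 whose pattern was most like the sum, over the same 9 libraries, were *Gclm* (r = 0.947), *Sdpr* (0.946), *Mterf3* (0.945), *Poln* (0.934), *Tprgl* (0.927), *Entpd3* (0.927), *Slc30a1* (0.927), *Gm12966* (0.923), *Slc16a6* (0.921) and *Ftl1* (0.920). *Gclm*, the modifier subunit of the enzyme that starts glutathione synthesis, was at 47.2, 49.0 and 50.3 in control, 48.6, 65.4 and 88.1 in compound KO and 98.2, 106.8 and 103.0 in double KO libraries. *Ftl1*, the ferritin light chain that stores iron, was at 686.4, 678.4 and 608.4, then 749.3, 1421.9 and 1697.3, then 1499.0, 1853.7 and 1685.9. In both, compound KO replicate 1 lay near control and the other compound KO libraries lay higher, as for the globins.

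Other red cell genes were read from lists. Of a list of 9, made of further globins and the alpha chain chaperone *Ahsp*, *Hba-x* was analysed here, which encodes the embryonic alpha-type chain zeta. *Hba-x* was at 0.4, 0.4 and 0.7 in control, 0.7, 0.4 and 1.9 in compound KO and 0.8, 3.8 and 1.4 in double KO libraries. Double KO replicate 2 was the highest, as for *Hbb-y*, and the log2 difference between double KO and control was 0.88 (SE 0.37, limma adjusted p 0.533). *Hba-x* lay near the floor and met the minimum for testing only through double KO libraries, so the filter favoured this direction. It was not tested between compound KO and control. Of 17 heme synthesis genes other than *Alas2*, 12 were higher and 5 lower in double KO lenses with 0 called. Their log2 differences ran from -0.22 (*Slc25a38*) to 0.43 (*Abcb6*), with a median of 0.07. *Alad*, the enzyme after the first step, was at 33.0 to 34.4 in control and 36.6 to 44.2 in double KO libraries. The summed value of the list was 339 to 357 in control, 341 to 369 in compound KO and 336 to 382 in double KO libraries.

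Many genes of the red cell membrane and skeleton are also used by other cells. Of 20 listed, 14 were in the table and 13 were tested, with 8 higher, 5 lower and 0 called in double KO lenses and a median of 0.27. *Sptb* (beta spectrin) was at 1073 to 1273 in control and 994 to 1069 in double KO libraries, *Slc2a1* (the glucose transporter Glut1) at 691.8 to 708.8 and 792.5 to 926.2, and *Tmod1* (tropomodulin, which caps actin filaments) at 93.0 to 111.6 and 109.3 to 121.1.

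Red cell transcription factors were 5 higher and 0 lower of 5 tested in double KO lenses, with 0 called and a median of 0.27. The 3 with the highest mean, *Ldb1*, *Myb* and *Zfpm1*, ran at 10.4 to 46.8 in control and 11.7 to 48.5 in double KO libraries. *Gata1*, *Klf1*, *Nfe2*, *Gata2*, *Gfi1b* and *Hemgn* were not analysed here. Genes of the red cell cytosol and of iron uptake were 10 higher and 5 lower of 15 tested, with 0 called and a median of 0.16. By the unadjusted rule, 1 gene was higher and 1 lower in the membrane list and likewise in the cytosol list, and 0 passed in either direction among heme synthesis genes and transcription factors. Between double KO and control, 1.59% of all genes were higher by this rule, and 175 of 14122 were lower. The cytosol gene that was higher there met the minimum for testing only through the double KO libraries, which favoured that direction. In the other comparisons limma called 0 genes of these 4 lists. Between compound KO and control, the unadjusted rule passed 3 transcription factors as higher and 1 cytosol gene in each direction. By that rule 3.81% of all genes were higher there, and 766 of 14348 passed in either direction. All 3 factors were highest in compound KO replicate 1, the library that stood apart. Between double and compound KO 0 passed, where 0.854% of all genes were higher. Without compound KO replicate 1, 0 were called in either comparison. Between compound KO and control, 2 transcription factors and 1 cytosol gene were then higher by the unadjusted rule and 1 membrane gene passed in each direction. In that setting 2.6% of all genes were higher by the rule. In the list of heme breakdown and transport, 2 of 6 tested were called between double KO and control and both were higher, where 0.361% of all genes were called. *Hmox2* (heme oxygenase 2) was at 34.7 to 44.8 in control, 24.3 to 30.9 in compound KO and 29.1 to 32.1 in double KO libraries, without overlap with control, and its log2 difference of -0.42 (SE 0.11, limma adjusted p 0.310) between double KO and control was not called. *Lrp1* (a receptor that takes up heme bound to hemopexin) had a difference of -0.11 (SE 0.10) and overlapped. *Slc48a1* (the heme transporter Hrg1) was at 27.1 to 30.5 in control, at 62.2, 146.1 and 143.9 in compound KO and at 163.1 to 166.5 in double KO libraries, with a log2 difference of 2.45 (SE 0.06, limma adjusted p 0.000379) between double KO and control. *Hmox1* (heme oxygenase 1, which breaks heme down) was at 1.8, 1.2 and 3.5 in control and at 24.9, 20.4 and 24.7 in double KO libraries, with a difference of 3.0 (SE 0.28, limma adjusted p 0.0233). In compound KO replicates 1 to 3 *Hmox1* was at 3.0, 14.1 and 12.6, so it was lowest in replicate 1, as were *Slc48a1* and the globins. For *Slc48a1* and *Hmox1* the double KO libraries were close together. The adult globins summed to 2306, 3806 and 2949 in double KO replicates 1 to 3. A link between these heme genes and the red cell transcripts was not tested.

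Markers of other cells of blood and vessels were set beside the 7 genes. Of 12 platelet genes 6 were in the table, and their sum was 5.5 to 8.2 in control, 11.9 to 14.2 in compound KO and 10.5 to 14.4 in double KO libraries, so it was higher in all knockout libraries, compound KO replicate 1 included. *Vwf*, the platelet gene with the highest mean, ran at 3.8 to 6.6 in control and 3.5 to 9.1 in knockout libraries, with overlap. Each other gene in the sum lay between 0 and 2.6 in every library, near the floor. Of the platelet genes, 3 of 3 tested were higher in double KO lenses with 0 called. Among them, *Itga2b* and *Itgb3* met the minimum for testing only through the double KO libraries. The filter favoured their direction, so this count shows nothing further. *Ppbp*, a defining platelet gene chosen after its values were seen, was not tested between double KO and control. It was listed at 0 in all control libraries and at 0.3 to 1.4 in the knockout libraries. The sum of 14 endothelial genes was 81.3 to 98.2 in control, 97.3 to 165 in compound KO and 92.7 to 100.6 in double KO libraries, with 11 of 13 tested higher in double KO lenses, 0 called and a median of 0.13. The sum of 10 macrophage genes was 13.8 to 18.9, 25.9 to 42.0 and 9.5 to 19.9. Of 9 neutrophil genes, 2 were in the table, with a sum of 0.3 to 2.3 over all libraries. The pericyte and mesenchyme sum was 49.8 to 86.9 in control, 101.9 to 2127 in compound KO and 67.7 to 250 in double KO libraries, so each compound KO library was above control. The lens sum was 118549 to 141708, 43082 to 118319 and 85715 to 125341, so each compound KO library was below control. The share of blood, vessel or mesenchyme cells in the differences of the globins was not tested.

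**Figure D5:**
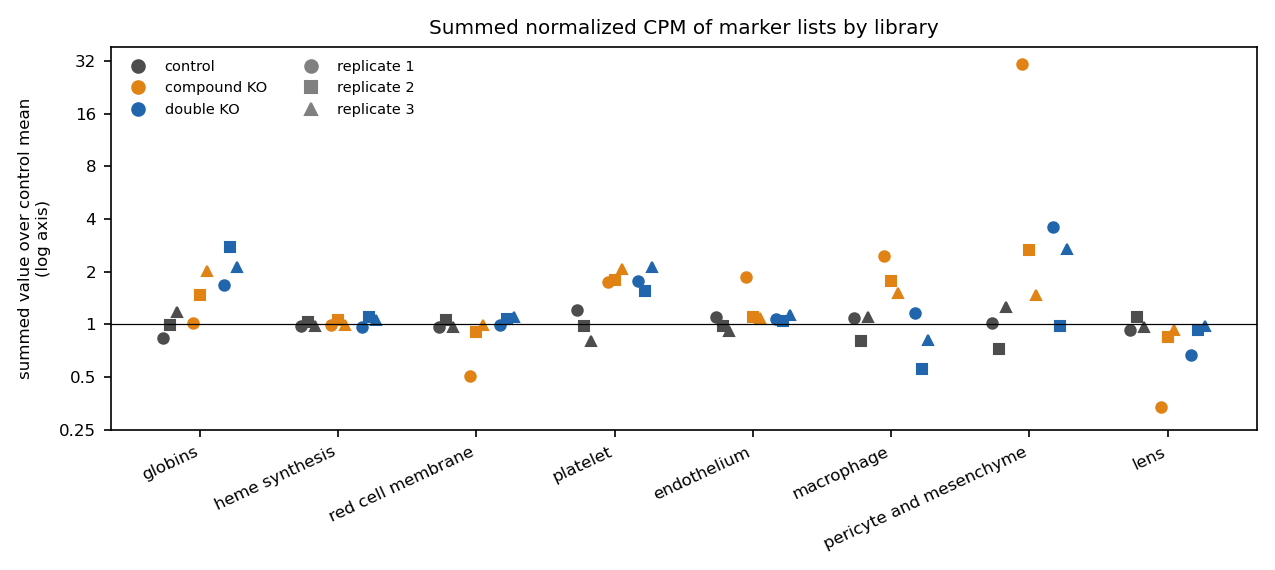
Summed normalized CPM of 8 gene lists in each library, divided by the mean of the 3 control libraries (log axis, 1 is the control mean). The 5 globins lie above 1 in all double KO libraries, the heme synthesis list stays near 1 in all 9 libraries, and compound KO replicate 1 stands apart in the mesenchyme and lens lists.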

How the data were processed

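RNA-seq of E16.5 lenses was analysed in 9 libraries, 3 each of control, compound KO and double KO genotype as labelled. The submitters' processing notes name Trimmomatic, HISAT2, StringTie, Cufflinks and edgeR and the build mm39, and their versions are not given in the sources used here. The deposited values are a signal, CPM that the authors normalized, rounded to 1 decimal. They are not counts: library totals ran from 728036 to 1131184, with a geometric mean of 1000012. The test planned for normalized values was therefore used, limma 3.58.1 (R 4.3.3). It was two-sided and fitted on the 2 groups compared, with log2(value + 1) as input and a trend of variance with level. Entries with a symbol were tested if 2 or more of the 6 libraries had a value of 1 or more. A low entry could meet this minimum through 1 group alone, which favoured a higher value in that group. P-values were adjusted over all tested entries by Benjamini-Hochberg, and a gene was called with an adjusted p up to 0.05 and a 1.5-fold difference. The script was tested on simulated data.

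The 7 genes and the 15 lists were chosen with earlier results of these data known. All 7 genes are named, as are every gene found of the further globins, the 3 genes with the highest mean in a list where its genes are named, any gene called and the 10 genes most like the adult globin sum. Some genes of the lists are not reported here by name. Per-kilobase values divide by the length of the canonical transcript in GENCODE release 39. Promoters were compared without gaps, in Python 3.11.15 with numpy 2.4.6, pandas 2.3.3 and matplotlib 3.10.9. Alternatives were upper quartile or library total scaling, other filters, pseudocounts of 0.1 and 0.5, the replicate number as a block, all 9 libraries fitted together, summed entries, other thresholds and each library left out. Summing the duplicated globins, counting these genes in each setting, and counting the red cell lists without compound KO replicate 1, were chosen after seeing the data.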

Additional observations from a re-analysis of the deposited data

How the results depend on the processing

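No log2 difference of the 7 genes crossed the threshold of an adjusted p of 0.05 in any of the settings run, with adjusted p from 0.120 to 0.990 between double KO and control, 0.295 to 0.791 between compound KO and control and 0.472 to 0.983 between double and compound KO, and 0 genes of the 7 were called in each adjusted setting. Of these values, 3 changed sign, all for *Hba-a1* between double and compound KO: -0.17 without compound KO replicate 1, -0.06 without double KO replicate 1 and -0.043 with library total scaling, with -0.17 to 0.46 over the libraries left out. At an unadjusted p, 5 of the 7 passed between double KO and control. With at least 1 required in every library, *Hbb-y* was not tested in the comparisons with control.

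Over all genes, 51 were called between double KO and control, 19 in one fit of all 9 libraries (17 of them shared), 400 at an unadjusted p, and 22 to 47 with a library left out (22 without control replicate 3). Between compound KO and control 0 were called, 2 in one fit of all 9 libraries, 766 at an unadjusted p, and 0 to 13 with a library left out (13 without compound KO replicate 1). Between double and compound KO 2 were called, 0 with at least 1 in every library, 5 in one fit of all 9 libraries, 1 with a pseudocount of 0.1, 440 at an unadjusted p, and 1 to 6 with a library left out (6 without compound KO replicate 1). The cause of these differences was not tested.

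With group means removed, the correlations of same-numbered libraries lay from -0.106 to 0.216, 2 of 9 over 0.1, so the numbers were not taken as pairs. With the replicate number as a block, 10 genes were called between double KO and control, all among the 51, 0 between compound KO and control and 0 between double and compound KO, and none of the 7 genes was called. Groups of 3 libraries and unknown depth limit what can be seen for *Hbb-y* and *Slc4a1*, whose control values lay within 2.2 of 0.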
